A study of Mus musculus with 6 samples.

Results

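The mitochondrial ATP synthase genes described here are *Atp5a1*, *Atp5b*, *Atp5c1*, *Atp5d*, *Atp5e*, *Atp5g1*, *Atp5g3*, *Atp5f1* and *Atp5o*, which encode subunits of the enzyme, and *Atpif1*, which encodes its inhibitory factor. They were taken by gene symbol from a table of 19445 gene loci, and each of the 10 symbols matched a single row. RNA-Seq was performed in the inguinal white fat depot (iWAT) of 3 mice carrying an *Hlx* transgene (TG) and 3 littermate wild-type mice (WT), all 12 weeks old, with 1 library of single-end reads of 100 bases per mouse. In TG mice a full-length *Hlx* cDNA, encoding a homeobox transcription factor, is driven by the aP2 (*Fabp4*) promoter, which is active in fat cells, and WT littermates lack the transgene. The lines were made in C57BL/6 × SJL embryos and backcrossed to C57BL/6, and the founder line behind these 3 mice is not given in the sources used here. The authors deposited FPKM, a fragment number divided by transcript length and by the mapped reads of the sample, so levels are per length. Comparison of levels between genes is limited where sequence has near-identical copies or a row covers a merged locus, as described below.

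ATP synthase, or complex V, sits in the inner mitochondrial membrane and uses the proton gradient built by the respiratory chain to make ATP. Protons turn a ring of c subunits and the central stalk fixed to it, the turning stalk drives ATP formation in the F1 head, and a peripheral stalk keeps the head from turning along. In brown fat the uncoupling protein Ucp1 lets protons return without passing through the enzyme, and brown adipocyte mitochondria are known for a low content of ATP synthase relative to the respiratory chain and for low expression of the c subunit gene *Atp5g1*.

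The targeted gene, *Hlx*, was between 79.6 and 110 FPKM in TG mice and between 6.88 and 8.14 FPKM in WT mice (limma adjusted p = 0.000106). Read counts were not used here, so absolute depth is unknown, and relative depth, taken from how finely the lowest values are spaced, was 0.693 to 1.14 in TG and 0.94 to 1.40 in WT mice, with WT replicate 3 as the reference. All animals are labelled male. However, *Xist*, the RNA of the inactive X chromosome, was between 20.2 and 33.6 FPKM in all 6 samples. The 28 Y chromosome loci were at 0 in each. These values are those of female tissue, in TG and WT mice alike, and go against the label. The adipocyte markers summed to 28295 to 33640 FPKM in TG and 24005 to 29725 FPKM in WT mice, but 4 of these 7 genes had negative log2 fold changes and *Adipoq*, the adiponectin gene, was called lower at -0.85. No marker gene was at 0 in all samples. The 6 brown fat markers, *Ucp1* among them, summed to 5041 to 6418 against 552 to 971 FPKM, with 5 called higher and *Dio2*, a deiodinase gene, at a log2 fold change of -0.37 and not called. *Adipoq* and *Dio2* are named after their values were seen. Macrophage markers were lower in TG (348 to 493 against 734 to 935 FPKM, 4 of 6 called), lymphocyte markers ranged from 190 to 282 against 273 to 401 FPKM (1 of 6 called) and epithelial markers from 83.6 to 176 against 128 to 201 FPKM (0 of 7 called). Endothelial markers were 149 to 158 against 133 to 143 FPKM (2 of 6 called higher). All 10 skeletal muscle markers in the table had higher means in TG, with sums of 121 to 861 against 9.91 to 186 FPKM and 0 of 10 called. In bulk tissue, fewer cells of a type and less RNA per cell cannot be told apart, and the part of these cell types in the results below was not tested.

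Most of the F1 and stalk genes were higher in TG iWAT, whereas the c-ring genes and the inhibitory factor were not. Of the 10 genes, 6 were higher with an adjusted p under 0.05 (test with limma on log2(FPKM + 1), Benjamini-Hochberg adjustment over 11692 loci), 0 were lower and 4 were not called. Of all tested loci 11.6% were higher and 7.03% were lower. The genes called were *Atp5a1*, *Atp5b*, *Atp5d*, *Atp5e*, *Atp5f1* and *Atp5o*, and those not called were *Atp5c1*, *Atp5g1*, *Atp5g3* and *Atpif1*. The genotypes did not overlap in 8 of the 10 genes, against 42.9% of all loci. In 7 of these the TG values were the higher ones, as in 22.8% of all loci. The median log2 fold change of the 10 genes was 0.74, beside -0.01 over all loci, and it was 0.38 after quantile normalization. Summed over the 10 genes, they took 1.36% ± 0.122 of a TG sample's total FPKM (SD, n = 3) and 0.794% ± 0.0359 of a WT sample's (SD, n = 3).

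**Figure D1:**
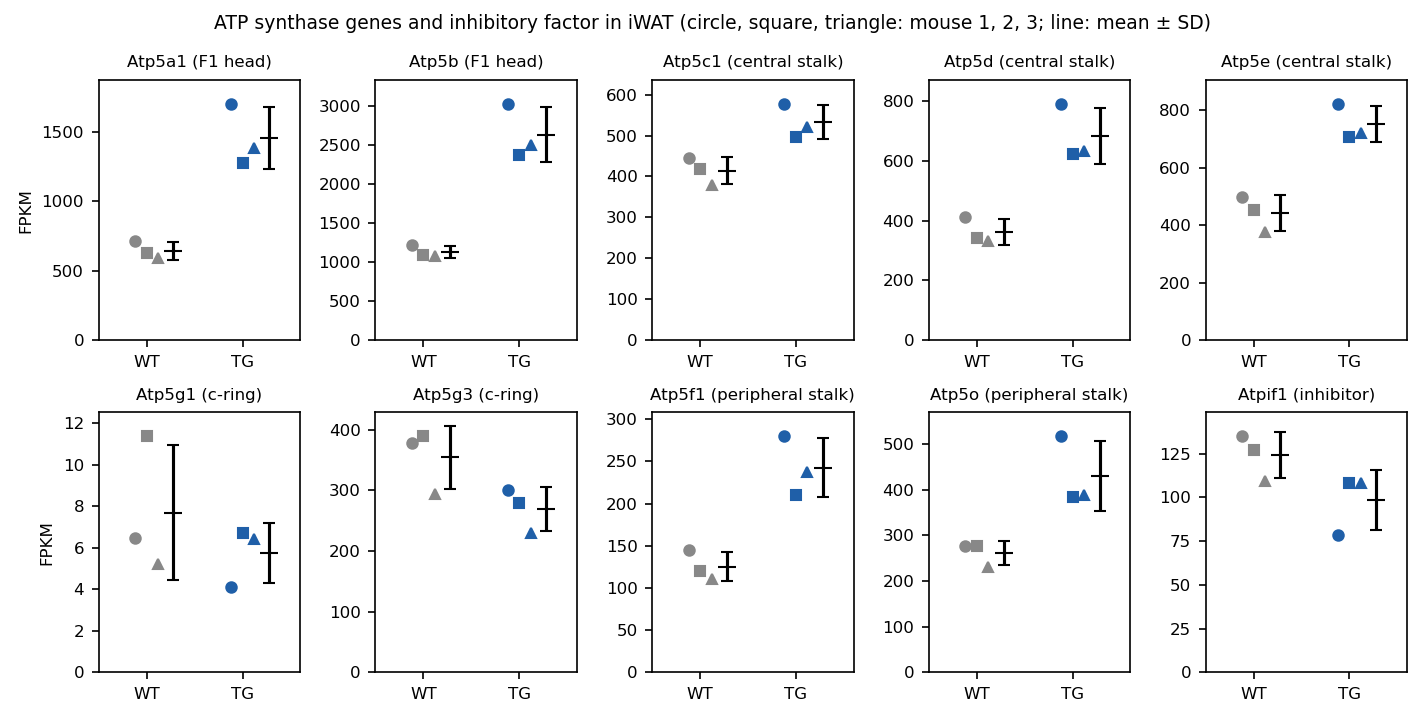
FPKM of the 10 ATP synthase genes (vertical axes, linear from 0) in each WT (grey) and TG (blue) mouse, with the mean and SD of 3 mice beside the points. TG points lie above WT points in the F1 head, stalk and peripheral stalk panels, WT and TG points overlap for *Atp5g1* and *Atp5g3*, and for *Atpif1* the TG points lie below.

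The F1 head is a ring of α and β subunits, and the catalytic sites lie mainly on β. *Atp5b*, encoding the β subunit (mm10 chromosome 10, 128083306 to 128090388), had 3029, 2366 and 2502 FPKM in TG mice and 1223, 1085 and 1077 FPKM in WT mice. The lowest TG mouse stood far above the highest WT mouse. Its log2 fold change was 1.22 (standard error 0.16, adjusted p = 0.00355), a 2.33-fold ratio of means. *Atp5a1*, encoding the α subunit (chromosome 18, 77773767 to 77782868), had 1705, 1276 and 1386 FPKM in TG and 717, 625 and 591 FPKM in WT mice. As for *Atp5b*, the genotypes were widely apart. The log2 fold change of *Atp5a1* was 1.17 (standard error 0.16, adjusted p = 0.00401), a 2.26-fold ratio. With any mouse left out, the log2 fold change stayed between 1.11 and 1.29 for *Atp5b* and between 1.05 and 1.26 for *Atp5a1*. These were the only members that combined a call with a ratio of at least 2, as did 3.53% of all tested loci in the higher direction. The log2 ratio of *Atp5a1* to *Atp5b* was -0.86 ± 0.03 in TG and -0.81 ± 0.05 in WT mice (SD, n = 3 each), with overlapping values (exact permutation test, two-sided p = 0.3, where the smallest possible p is 0.1).

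The central stalk carries the rotation from the membrane into the head and is formed by γ, δ and ε. *Atp5d*, the δ subunit gene, had 791, 622 and 632 FPKM in TG and 411, 341 and 332 FPKM in WT mice. All TG values were above all WT values, with a log2 change of 0.91 (standard error 0.15, adjusted p = 0.0076). The deposited row of *Atp5d* covers 672334 bases of chromosome 10 and shares that locus with 40 other rows. Its coordinates are therefore those of a merged locus. *Atp5b*, *Atp5c1* and *Atp5f1* also share a locus with 1 other row each. Of the further genes described below, so do *Atp5h*, *Usmg5* and *Slc25a25*, and *Atp5j* shares one with 2 rows. The part of shared loci in the values was not tested. *Atp5e*, the ε subunit gene, had 822, 708 and 721 FPKM in TG and 497, 453 and 376 FPKM in WT mice. Again no value overlapped, and the log2 fold change was 0.77 (standard error 0.14, adjusted p = 0.0124). *Atp5c1*, the γ subunit gene, had 578, 497 and 521 FPKM in TG and 446, 418 and 380 FPKM in WT mice. Each TG mouse was above each WT mouse, but by less than in the other stalk genes. The log2 fold change of *Atp5c1* was 0.36 (95% interval 0.09 to 0.63, adjusted p = 0.0718), and it was -0.03 after quantile normalization.

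The peripheral stalk ties the head to the membrane sector. *Atp5f1*, encoding subunit b, which spans the length of the stalk, had 280, 210 and 238 FPKM in TG and 145, 120 and 111 FPKM in WT mice. The lowest TG value exceeded the highest WT value. Its log2 fold change was 0.95 (standard error 0.15, adjusted p = 0.00667). *Atp5o*, encoding the oligomycin sensitivity-conferring protein that caps the head, had 518, 384 and 388 FPKM in TG and 277, 276 and 231 FPKM in WT mice. Here TG replicate 1 stood well above the other TG mice, and the genotypes did not overlap. The log2 fold change of *Atp5o* was 0.71 (standard error 0.15, adjusted p = 0.0209). It was not called without WT replicate 2 (log2 fold change 0.75, adjusted p = 0.0516) or without WT replicate 3 (0.62, adjusted p = 0.0733).

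The c-ring genes encode the same mature protein from different precursors, since *Atp5g1*, *Atp5g2* and *Atp5g3* differ in the mitochondrial targeting peptide that is cut off on import. The last 90 coding bases of each, from the GENCODE transcripts on GRCm38, are shown for comparison between the genes. Capitals mark bases that differ from *Atp5g1*.
Atp5g1: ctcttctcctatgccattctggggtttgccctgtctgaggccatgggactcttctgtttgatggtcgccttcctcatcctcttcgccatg
Atp5g2: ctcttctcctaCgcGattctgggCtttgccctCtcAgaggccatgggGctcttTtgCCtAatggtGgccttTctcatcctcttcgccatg
Atp5g3: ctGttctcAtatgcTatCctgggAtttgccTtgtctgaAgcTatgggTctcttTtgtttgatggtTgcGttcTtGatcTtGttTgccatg
In this stretch *Atp5g2* differs from *Atp5g1* at 12 bases and *Atp5g3* at 17. Over the last 225 coding bases, *Atp5g2* matched *Atp5g1* at 84.9% and *Atp5g3* matched it at 80.0% of positions.

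*Atp5g3* had by far the highest values of the c subunit genes, with 301, 279 and 230 FPKM in TG and 379, 390 and 295 FPKM in WT mice. The highest TG mouse lay just above the lowest WT mouse, and the other WT mice were above all TG mice. Its log2 fold change was -0.39 (95% interval -0.76 to -0.02, adjusted p = 0.121). *Atp5g3* was not called in the fit used here, while it was lower after quantile normalization (log2 fold change -0.72, adjusted p = 0.0102) and with sample weights (adjusted p = 0.043). *Atp5g1* had low values, with 4.10, 6.71 and 6.42 FPKM in TG and 6.46, 11.4 and 5.24 FPKM in WT mice. These values overlapped broadly, and WT replicate 2 stood apart at the top. The log2 fold change of *Atp5g1* was -0.33 (95% interval -0.98 to 0.32, adjusted p = 0.42). *Atp5g2*, the remaining c subunit gene, had means of 2.25 ± 0.407 FPKM in TG and 1.99 ± 0.223 FPKM in WT mice (SD, n = 3 each; log2 fold change 0.12, adjusted p = 0.543). The 3 genes together came to 308, 287 and 239 FPKM in TG and 388, 403 and 302 FPKM in WT mice. *Atp5g3* made up between 96.5% and 97.8% of that sum in every mouse. The sum and this share rest on uncertain levels of *Atp5g1* and *Atp5g2*, since much of their sequence has near-identical copies, as given below. The proportion of *Atp5g1* to *Atp5g3* did not separate the genotypes, with log2 ratios of -5.34 ± 0.49 in TG and -5.41 ± 0.37 in WT mice (SD, n = 3 each; exact permutation test, two-sided p = 0.9).

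Near-identical sequence elsewhere in the genome bears on how firmly such levels can be read. For each gene, the 100-base windows of its transcript were searched in the transcripts of all other annotated genes, allowing 2 mismatches. In *Atp5g1*, 52.7% of windows were found in another gene, and the 3 genes that held them are annotated as pseudogenes. The share was 86.4% in *Atp5g2*, 65.6% in *Atp5l* and 58.1% in *Atp5h*. Among the other members it was 33.0% in *Atp5f1*, 24.0% in *Atp5o* and 12.5% in *Atp5c1*. It was 0 in *Atp5a1*, *Atp5b*, *Atp5d*, *Atp5e*, *Atp5g3* and *Atpif1*. How reads with several mapping positions were shared out is not given in the sources used here. Levels of *Atp5g1*, *Atp5g2*, *Atp5l* and *Atp5h* are therefore uncertain, and so, at smaller shares, are those of *Atp5f1*, *Atp5o* and *Atp5c1*. The part of these copies in the low levels of *Atp5g1*, *Atp5g2* and *Atp5l* was not tested.

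**Figure D2:**
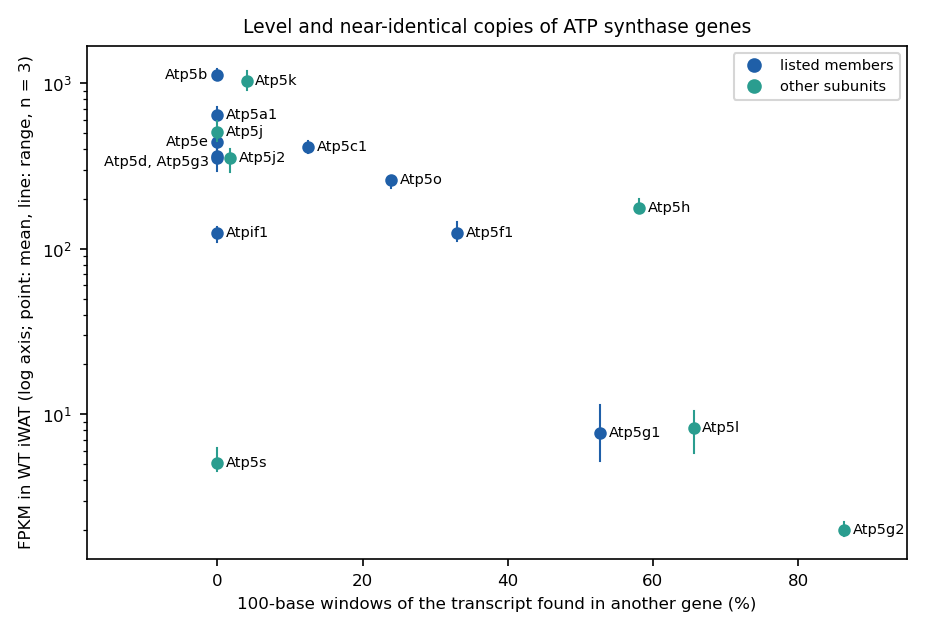
Mean WT level in FPKM (vertical log axis, line for the range of 3 mice) against the percentage of 100-base transcript windows found in another annotated gene (horizontal axis), for listed members (blue) and other subunit genes (green). *Usmg5*, with 5.1% of windows found among 113 other genes, is not drawn. *Atp5g1*, *Atp5l* and *Atp5g2* combine more than 50% of windows with copies and levels near or under 10 FPKM, *Atp5h* has 58.1% and a mean of 177 FPKM, and *Atp5s* is low without any copy.

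*Atpif1* encodes IF1, a small protein that binds the F1 head when the proton gradient collapses and keeps the enzyme from running backwards and burning ATP. It had 78.6, 108 and 108 FPKM in TG mice and 135, 127 and 110 FPKM in WT mice. The groups did not overlap, but by a small margin, and TG replicate 1 was set apart by its low value. The log2 fold change of *Atpif1* was -0.34 (95% interval -0.70 to 0.01, adjusted p = 0.152). In the same mouse, TG replicate 1, the β subunit gene was at its highest. The log2 ratio of *Atpif1* to *Atp5b* was -5.25, -4.44 and -4.52 in TG mice and -3.17, -3.08 and -3.29 in WT mice. No TG mouse came near the WT values, and the difference of means was -1.56. The exact permutation test gave p = 0.1, the smallest it can give with 3 mice against 3 (adjusted p = 0.2 over the 4 ratios chosen first and 0.175 over all 7 ratios).

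The c-ring genes stood in a similar way to the head. The log2 ratio of *Atp5g3* to *Atp5b* was -3.28 ± 0.18 in TG and -1.68 ± 0.20 in WT mice (SD, n = 3 each), a difference of -1.60 with no overlap. For *Atp5g1* to *Atp5b* the difference was -1.54, also without overlap, from -7.08 ± 0.55 in WT to -8.63 ± 0.52 in TG mice (SD, n = 3 each). The exact permutation test gave p = 0.1 for both (adjusted p = 0.175 over 7 ratios). These ratios and that of *Atp5a1* to *Atp5b* were chosen after the values were seen. A ratio within a mouse is free of the scaling between mice, and shows unequal change of its genes rather than which of them changed.

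**Figure D3:**
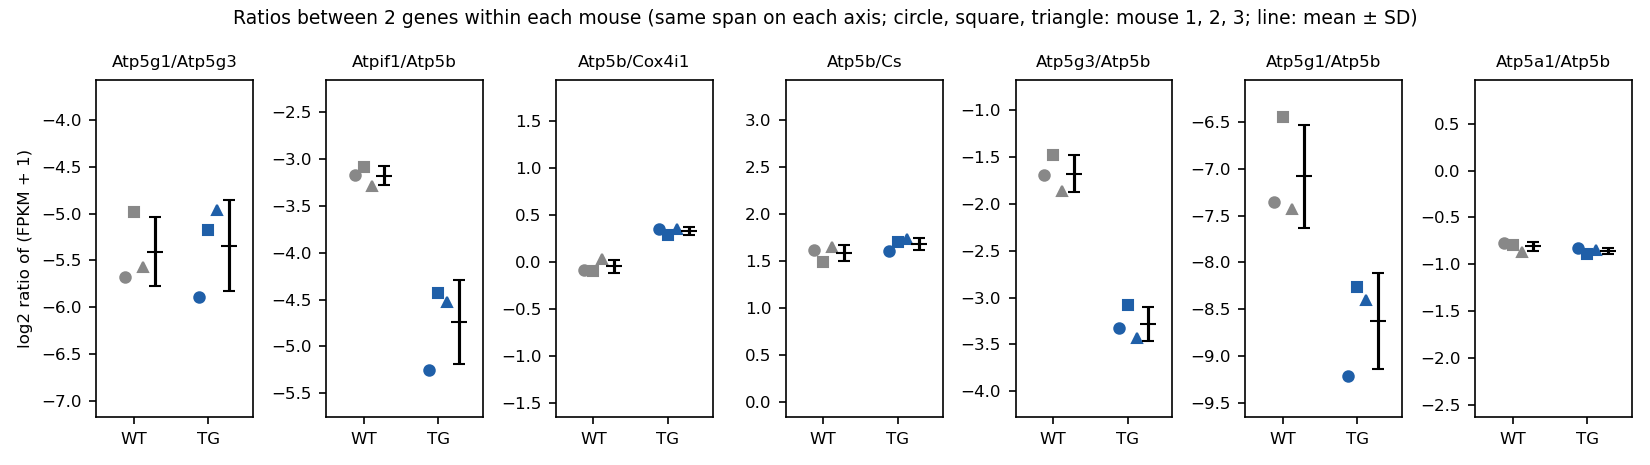
Log2 ratios of FPKM + 1 between pairs of genes in each mouse, WT in grey and TG in blue, with mean and SD of 3 mice and the same vertical span in all 7 panels. *Atpif1*, *Atp5g3* and *Atp5g1* relative to *Atp5b* lie lower in TG mice by -1.56, -1.60 and -1.54, while *Atp5a1* relative to *Atp5b* and *Atp5g1* relative to *Atp5g3* overlap between genotypes.

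The order of levels changed in the middle of the list. In WT mice *Atp5b* was highest with 1128 ± 82.2 FPKM, followed by *Atp5a1* with 644 ± 65.1 FPKM (SD, n = 3 each). Next came *Atp5e*, *Atp5c1*, *Atp5d* and *Atp5g3*, with means between 354 and 442 FPKM, and the ranges of neighbours in that order overlapped. *Atp5o* followed with 262 ± 26.1 FPKM, then *Atp5f1* with 125 ± 17.4 and *Atpif1* with 124 ± 13.1 FPKM, whose ranges overlapped, and *Atp5g1* was lowest with 7.70 ± 3.26 FPKM (SD, n = 3 each). In TG mice *Atp5b* with 2632 ± 350.0 FPKM and *Atp5a1* with 1456 ± 223 FPKM (SD, n = 3 each) again led. *Atp5g3*, level with *Atp5d* in WT mice, had 270 ± 36.4 FPKM in TG mice, where *Atp5d* had 682 ± 94.5 FPKM (SD, n = 3 each). It thereby stood beside *Atp5f1* with 243 ± 35.3 FPKM, the range of which it overlapped, and below *Atp5o* with 430.2 ± 75.9 FPKM (SD, n = 3 each). *Atpif1* and *Atp5g1* remained the lowest in both genotypes. The place of *Atp5g1* is uncertain, since much of its sequence has near-identical copies. At smaller shares, so are the places of *Atp5f1*, *Atp5o* and *Atp5c1*.

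The same mice were often highest within their genotype. Among TG mice 8 of the 10 genes were highest in replicate 1, all but *Atp5g1* and *Atpif1*, and among WT mice 8 of 10 were highest in replicate 1, all but *Atp5g1* and *Atp5g3*. Over all tested loci, these mice were highest at 43.2% and 38.8%. These samples also had the highest total FPKM of their genotypes, 542096 and 518450, against 466059 to 514537 in the other mice. The skeletal muscle markers summed to 861 FPKM in TG replicate 2, to 121 and 170.3 FPKM in the other TG mice and to 9.91, 186 and 51.3 FPKM in WT mice. TG replicate 2 had the lowest *Atp5a1*, *Atp5b*, *Atp5c1*, *Atp5d*, *Atp5e*, *Atp5f1* and *Atp5o* values of the TG group. Without it, 6 genes were called higher and the median log2 fold change was 0.79. The part of muscle RNA in the values of the other mice was not tested.

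Of 11 further subunit genes listed, 8 were in the table, and 4 of them were higher, 0 were lower and 4 were not called. The 4 called genes fell to 2 on leaving out TG replicate 1, TG replicate 3, WT replicate 2 or WT replicate 3. *Atp5j2*, encoding subunit f of the membrane sector, had 764, 677 and 686 FPKM in TG and 400.2, 375 and 290.2 FPKM in WT mice, widely apart, with a log2 change of 1.01 (standard error 0.15, adjusted p = 0.00552). *Atp5h*, encoding subunit d of the peripheral stalk, had a log2 change of 0.73 (adjusted p = 0.0086), and *Atp5k*, encoding subunit e, one of 0.64 (adjusted p = 0.0355). *Atp5s*, encoding coupling factor B, had a log2 change of 0.60 (adjusted p = 0.0432) at a low level of 8.24 ± 1.51 FPKM in TG and 5.10 ± 0.961 FPKM in WT mice (SD, n = 3 each). With a mouse left out, the log2 change stayed between 0.55 and 0.74 for *Atp5k* and between 0.51 and 0.74 for *Atp5s*. Their adjusted p then rose up to 0.117 and 0.131, so both calls were close to the threshold. *Atp5j*, encoding coupling factor 6 of the peripheral stalk, had 467, 437 and 426 FPKM in TG and 591, 488 and 448 FPKM in WT mice. Its ranges overlapped and its log2 fold change was -0.19 (95% interval -0.50 to 0.12, adjusted p = 0.336). *Atp5l*, encoding subunit g, with 0.65 (adjusted p = 0.0743) and *Usmg5*, encoding the small protein DAPIT, with 0.16 (adjusted p = 0.486) were not called either. The remaining genes, *2010107E04Rik* and the mitochondrially encoded *mt-Atp6* and *mt-Atp8*, were not analysed here.

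Of the genes of assembly factors, 2 were in the table and 1 was higher. *Atpaf2*, which chaperones the α subunit, had 83.4, 67.9 and 69.1 FPKM in TG and 43.6, 45.9 and 37.2 FPKM in WT mice. These groups were far apart, with a log2 change of 0.78 (standard error 0.12, adjusted p = 0.0061). *Atpaf1*, which chaperones the β subunit, was near 2 FPKM in all mice and had a log2 change of 0.22 (adjusted p = 0.197). The other assembly factors listed were not analysed here. Of 7 carriers that exchange adenine nucleotides or phosphate across the inner membrane, 6 were tested, 0 were higher and 1 was lower. *Slc25a4*, the adenine nucleotide carrier of muscle and heart, had 438, 353 and 358 FPKM in TG and 290.0, 297 and 250.2 FPKM in WT mice. The groups did not overlap and its log2 fold change was 0.45 (95% interval 0.15 to 0.75, adjusted p = 0.0506). *Slc25a5*, the widely expressed adenine nucleotide carrier, had a log2 change of 0.08 (adjusted p = 0.691), and *Slc25a3*, the phosphate carrier, one of 0.12 (adjusted p = 0.455), and both values were negative after quantile normalization. Among the carriers of ATP-Mg and phosphate, *Slc25a24* was lower with a log2 change of -0.40 (adjusted p = 0.0459), a call lost on leaving out any mouse other than TG replicate 2. *Slc25a23* had a log2 change of 0.42 (adjusted p = 0.121) and *Slc25a25* one of -0.07 (adjusted p = 0.742), while *Slc25a31*, an isoform of testis, stayed under the expression filter.

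**Figure D4:**
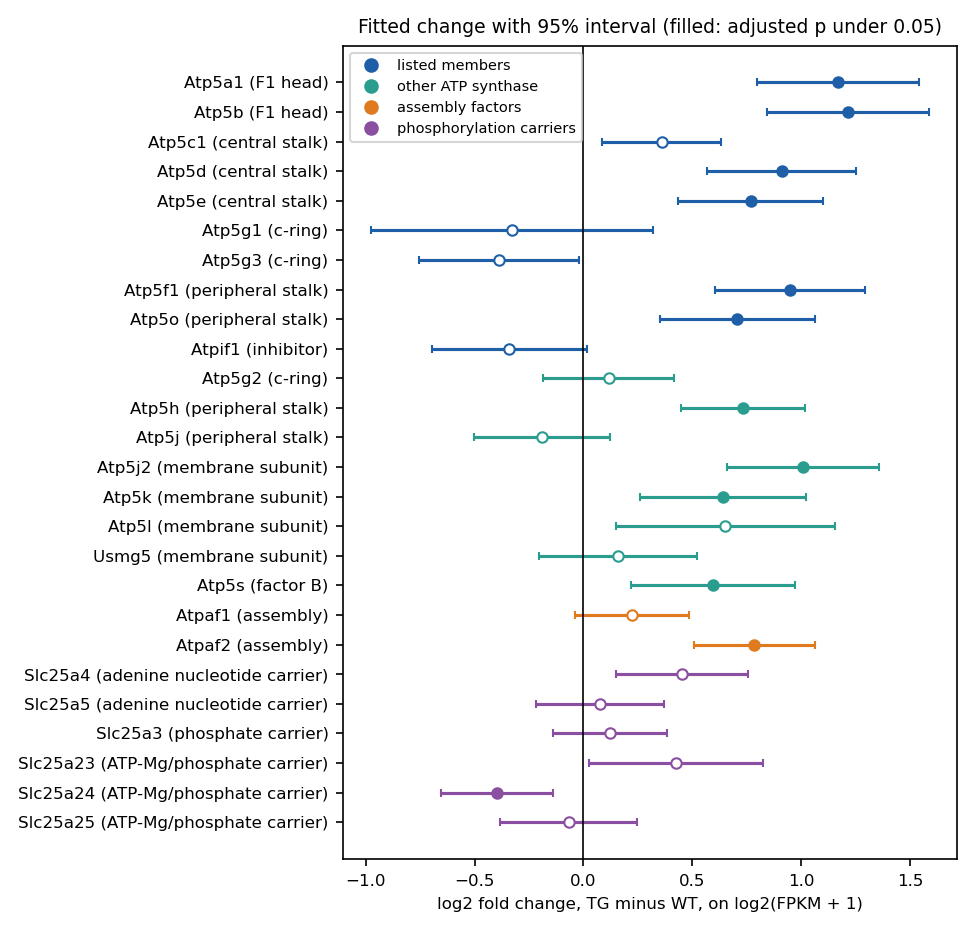
Fitted log2 fold change, TG minus WT, on the log2(FPKM + 1) scale (horizontal axis) with its 95% interval for 10 listed members, 8 other subunit genes, 2 assembly factors and 6 carriers, filled where the adjusted p was under 0.05. Filled points lie right of 0 for 6 members, 4 other subunits and *Atpaf2*, and left of 0 for *Slc25a24* only.

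Complexes I to IV pump the protons or feed the electrons that the enzyme depends on, and were read from the same fit. In complex I, 34 of 36 genes were higher, with a median log2 fold change of 0.88 and a range from 0.49 in *Ndufa2* and 0.53 in *Ndufs5* to 1.58 in *Ndufa10* and 1.63 in *Ndufv1*. All 4 genes of complex II were higher (median 1.22), from 1.03 in *Sdhc* and 1.11 in *Sdhd* to 1.33 in *Sdha* and 1.33 in *Sdhb*. Complex III had 9 of 9 genes higher (median 1.16), from 0.72 in *Uqcrh* and 0.93 in *Uqcr11* to 1.35 in *Cyc1* and 1.65 in *Uqcrc1*. In complex IV 13 of 16 were higher (median 1.05), led by *Cox7a1* with 4.07 and *Cox8b* with 2.61, isoforms of muscle and brown fat, while *Cox4i2* with 0.09 and *Cox6b2* with 0.68 were not called. No gene of complexes I to IV was lower, and 12, 4, 7 and 9 genes of complexes I, II, III and IV combined a call with a ratio of at least 2. These medians stand beside 0.74 for the 10 ATP synthase genes and 0.62 for the 8 other subunits, and the difference between the lists was not tested.

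The log2 ratio of *Atp5b* to *Cox4i1*, a subunit gene of complex IV, was 0.33 ± 0.04 in TG and -0.05 ± 0.07 in WT mice (SD, n = 3 each). The β subunit gene thus gained on it by 0.38 without overlap (exact permutation test, p = 0.1, adjusted p = 0.2 over 4 ratios). This pair does not stand for the complexes, since *Atp5b* had the largest log2 change of the members, 1.22. The members' median, 0.74, lay below that of complex IV, 1.05. Relative to *Cs*, the gene of citrate synthase, a matrix enzyme often used as a measure of mitochondrial content, *Atp5b* had log2 ratios of 1.68 ± 0.07 in TG and 1.58 ± 0.09 in WT mice (SD, n = 3 each), which overlapped (p = 0.3 in the exact permutation test). *Cs* itself had a log2 change of 1.12 (adjusted p = 0.00414). Of the 6 mitochondrial reference genes 4 were higher (median 0.59), with *Vdac1*, a pore of the outer membrane, at 0.82, and *Vdac3* at 0.29 and *Tomm20* at 0.11 not called. The V-ATPase, which uses ATP to pump protons into lysosomes and is not part of mitochondria, had 1 of 15 genes higher and a median of 0.15. That gene was *Atp6v1a* at 0.35, *Atp6v0e* was at 0.36, and the lowest were *Atp6ap1* at -0.21 and *Atp6ap2* at -0.16.

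**Figure D5:**
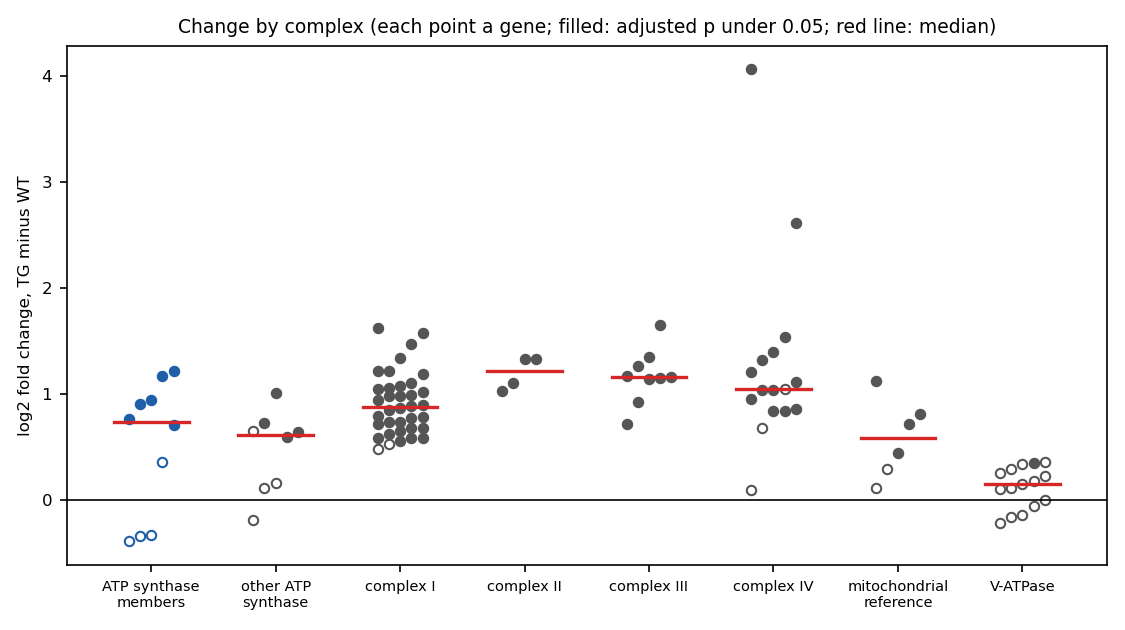
Log2 fold change, TG minus WT (vertical axis), of each tested gene of the listed members (blue), other ATP synthase subunits, complexes I to IV, the mitochondrial reference genes and the V-ATPase (grey), filled where the adjusted p was under 0.05, with a red line at each median. The medians are 0.74 for the members, 0.62 for the other subunits, 0.88, 1.22, 1.16 and 1.05 for complexes I to IV, 0.59 for the reference genes and 0.15 for the V-ATPase.

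Promoters of respiratory genes often hold sites of NRF1, of the oestrogen-related receptors, of ETS factors such as GABP, of YY1 or a CCAAT box. The 250 bases before the start were searched on both strands in 9 members, since RefSeq on GRCm38.p6 gave a promoter for those. Where 2 starts were given, for *Atp5c1*, *Atp5d* and the further subunit gene *Atp5j*, only the first was searched. The *Atp5g3* window lies inside its deposited locus (chromosome 2, 73908444 to 73912463), so a start farther upstream was not covered. The promoters of a gene called higher and of a c-ring gene and the inhibitor, neither of them called, are shown 5′ to 3′ on the strand of the gene, with matches in capitals. They lie at chr10:128083057-128083306 on the plus strand for *Atp5b*, at chr2:73911327-73911576 on the minus strand for *Atp5g3* and at chr4:132535415-132535664 on the minus strand for *Atpif1*.
Atp5b: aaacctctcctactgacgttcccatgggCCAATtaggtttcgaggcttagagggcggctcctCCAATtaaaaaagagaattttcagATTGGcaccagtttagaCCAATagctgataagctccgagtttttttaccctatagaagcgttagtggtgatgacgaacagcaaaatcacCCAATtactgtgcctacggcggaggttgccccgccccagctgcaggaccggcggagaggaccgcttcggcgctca
Atp5g3: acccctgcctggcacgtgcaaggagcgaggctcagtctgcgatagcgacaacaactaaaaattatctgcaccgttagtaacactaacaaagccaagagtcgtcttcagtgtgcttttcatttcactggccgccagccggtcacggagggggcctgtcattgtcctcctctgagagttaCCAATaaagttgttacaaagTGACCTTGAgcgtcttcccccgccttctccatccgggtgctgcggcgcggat
Atpif1: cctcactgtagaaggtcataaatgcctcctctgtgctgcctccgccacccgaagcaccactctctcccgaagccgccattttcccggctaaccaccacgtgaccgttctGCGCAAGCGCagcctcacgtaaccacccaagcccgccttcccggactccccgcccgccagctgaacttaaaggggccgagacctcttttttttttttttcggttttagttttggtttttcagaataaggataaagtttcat
*Atp5b* held 5 CCAAT matches, 4 as CCAAT and 1 as ATTGG. *Atp5g3* held a single match of the receptor element TNAAGGTCA, which begins 52 bases before the start, and *Atpif1* a single match of the NRF1 palindrome (GCGCA, any base, then GCGC), 141 bases before the start. Of 32851 promoters of this length, 33.8% held CCAAT, 1.14% the receptor element and 3.74% the NRF1 letters. Among the 9 members, 5 held CCAAT, 1 the receptor element and 1 the NRF1 letters, while the ETS letters CCGGAAGT and the YY1 letters AAGATGGCG, found in 2.88% and 0.606% of all promoters, were in none. Of the 8 other subunits, 5 held CCAAT, 3 the NRF1 letters and 1 the ETS letters. CCAAT was found in promoters of members called (*Atp5b*, *Atp5e*) and not called (*Atp5c1*, *Atp5g1*, *Atp5g3*). A match describes letters in this window and not binding.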

How the data were processed

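RNA-Seq of iWAT from 3 TG and 3 WT mice was used, grouped by the genotype label. The authors prepared TruSeq libraries from total RNA, mapped the reads to mm10 and deposited one FPKM value per gene locus and mouse; the submitters' processing notes name CASAVA 1.8.2, Bowtie2 2.1.0, TopHat2 2.0.9 and Cufflinks 2.2.1, and options and annotation are not given in the sources used here. No column of the table was left unmapped.

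The 11692 loci whose mean FPKM exceeded 1 in either genotype were tested two-sided on log2(FPKM + 1) by limma 3.58.1 (R 4.3.3; lmFit, then eBayes using the intensity trend, without covariates), with Benjamini-Hochberg adjustment over all of them and calls at an adjusted p under 0.05. The pseudocount understates changes of low genes. FPKM are not counts, so no count test was run, and low values carry a larger counting error of unknown size. Ratios within a mouse were compared by a two-sided exact permutation test over 20 arrangements, which cannot give less than 0.1. On simulated data made from these samples, 97% of 100 genes changed 3-fold and 85% of 100 changed 2-fold were called, and 10 of 192 calls were false. The changed genes were drawn only from loci with a mean log2(FPKM + 1) over 3, so these shares do not cover lower genes. Noise was drawn independently for each gene and mouse, so they do not cover shifts that a mouse shares across genes either. Far fewer genes were changed in the simulation than were called in these data. BLAST 2.17.0 found near-identical windows, in Python 3.11.15, and figures were drawn with matplotlib 3.10.9.

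The members, lists and tests were chosen with earlier results of these data known. Named are all members, all measured genes of the other ATP synthase, assembly and carrier lists, the 2 highest and 2 lowest genes of each other complex, the genes of the ratios, *Hlx* and *Xist*. Alternatives were a pseudocount of 0.1, quantile normalization, median-ratio scaling, no filter or one on the mean over all mice, no variance trend, sample weights, the replicate number as a block, calls at 0.01 and each mouse left out.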

Additional observations from a re-analysis of the deposited data

How the results depend on the processing

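The count of 6 members higher stayed at 5 to 6 with each mouse left out and was 4 at an adjusted p under 0.01. The count of members lower, 0, became 1 with quantile normalization, sample weights or the replicate block, each time *Atp5g3*, and the members' median fell to 0.38 with quantile normalization. Of 390 values of 26 single genes under the alternatives, 352 kept their direction and side of the threshold, 25 lost and 8 gained the call, and 5 turned: *Atp5c1* to -0.031, *Slc25a5* to -0.25 and *Slc25a3* to -0.18 with quantile normalization, *Slc25a5* without WT replicate 3 and *Slc25a25* without TG replicate 3. With a mouse left out, *Slc25a5* ran from -0.0077 to 0.19 and *Slc25a25* from -0.17 to 0.070. Other subunits higher came to 2 with no filter or at 0.01 and to 2 to 4 with a mouse left out, and 1, *Atp5j*, was lower with quantile normalization. Carriers higher came to 1 with median-ratio scaling, without the trend or with sample weights, and carriers lower to 0 with no filter, with the block, at 0.01, and to 0 to 1 with a mouse left out. Complex I had 22 higher at 0.01. The V-ATPase had 2 higher with sample weights, 0 at 0.01 and 0 to 2 with a mouse left out, and 1 lower with quantile normalization. The log2 ratio difference of *Atp5g1* to *Atp5g3* ran from -0.13 to 0.33 with a mouse left out. The cause of these shifts was not tested.

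Deviations of same-numbered TG and WT mice from their genotype means correlated at 0.01, 0.03 and 0.07. The labels do not say whether the numbers mark shared litters. With 3 mice per genotype, these correlations cannot settle it. With the number as a block, 1230 loci were higher and 656 lower, 6 members were higher and 1 lower, and 5 other subunits were higher, *Atp5l* being added (adjusted p = 0.0141). *Atp5g1*, *Atp5g2*, *Atp5l*, *Atp5s* and *Atpaf1* lie near or under 10 FPKM, and since absolute depth is unknown, the counting error of these values is unknown too.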
